A study of Homo sapiens with 6 samples.

Results

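The aminoacyl-tRNA synthetases are the enzymes that join each amino acid to its transfer RNA. Their transcripts were followed here in OVCA432 cells given microfibrillar associated protein 5 (MFAP5), a glycoprotein that cells secrete into the microfibrils of the matrix. OVCA432 is an established line grown from a high grade serous ovarian tumour. In the MFAP5 group (3 samples) the cells received 200 ng/mL of recombinant human MFAP5, and in the control group (3 samples) the solvent alone. Both groups were kept without serum for 24 h beforehand and stayed in serum-free RPMI medium for the 48 h of treatment, so every value is from serum-starved cells of a single line. Messenger RNA was measured on Affymetrix U133 Plus 2.0 arrays, 1 per sample and 6 in all. The members were a list of 35 genes, 19 cytosolic enzymes (symbols ending in 1, A or B) and 16 mitochondrial enzymes (symbols ending in 2). Of these, 32 had a probe set annotated with their symbol alone, and the brightest such probe set over the 6 arrays stood for the gene. The probe sets of MARS1, QARS1 and TARS2 also carried the symbol of a microRNA gene and were not used, which left 17 cytosolic and 15 mitochondrial genes. All 32 passed the brightness filter, out of 12216 genes tested.

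In human cells, a cytosolic set of synthetases charges the tRNAs that serve the ribosomes of the cytosol, and a separate set, also encoded in the nucleus, is imported to charge the tRNAs made inside mitochondria. Most amino acids therefore have a gene for each compartment, although GARS1 (glycine) and KARS1 (lysine) each supply both compartments. The enzymes fall into class I and class II by the fold of their catalytic site, and several cytosolic ones are held together in the multi-synthetase complex. When amino acids are short or the endoplasmic reticulum is stressed, the transcription factor ATF4 is known to raise many of the cytosolic synthetase genes, together with amino acid transporters and synthesis enzymes, by binding C/EBP-ATF response elements near their promoters.

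The letters of such an element, TTGCATCA (or TGATGCAA, the same letters on the other strand), stand near the start of 6 of the 16 cytosolic synthetases with a promoter window in RefSeq (GRCh38.p14), and they are shown because 4 of the 6 are the synthetases that were higher with MFAP5. Each line below gives 30 bases on the gene's own strand, 5′ to 3′, with the match in capitals.
AARS1 (chr16:70289675-70289704, minus strand): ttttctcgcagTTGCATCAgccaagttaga
CARS1 (chr11:3057407-3057436, minus strand): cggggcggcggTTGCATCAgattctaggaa
NARS1 (chr18:57621804-57621833, minus strand): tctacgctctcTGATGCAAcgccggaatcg
TARS1 (chr5:33440956-33440985, plus strand): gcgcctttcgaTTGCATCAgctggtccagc
IARS1 (chr9:92293692-92293721, minus strand): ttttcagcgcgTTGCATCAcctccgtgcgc
MARS1 (chr12:57488053-57488082, plus strand): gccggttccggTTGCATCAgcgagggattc
In all but AARS1 the same 8 letters lie close to the annotated start. AARS1 has them farther upstream, and its 250 bases before the start (chr16:70289507-70289756, minus strand) are given for that reason, again with the match in capitals.
AARS1 upstream: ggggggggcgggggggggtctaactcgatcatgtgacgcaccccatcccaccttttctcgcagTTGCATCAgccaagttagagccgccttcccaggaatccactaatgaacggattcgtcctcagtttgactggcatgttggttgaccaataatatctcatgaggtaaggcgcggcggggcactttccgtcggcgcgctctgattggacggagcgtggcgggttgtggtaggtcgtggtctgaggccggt

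The deposited signals had been scaled to a trimmed mean of 500.07 on all 6 arrays. Their medians were 60.4, 61.4 and 60.2 on the MFAP5 arrays and 55.4, 56.3 and 53.6 on the control arrays. Over the tested probe sets, log2 signals had correlations of 0.984 to 0.988 within a group, and 0.967 to 0.971 for an MFAP5 array set against a control array. For GAPDH, the 3′ control probe set over the 5′ one gave log2 ratios from -0.127 to -0.0629 on MFAP5 arrays and -0.199 to -0.0576 on control arrays. All 7 epithelial and ovarian carcinoma markers examined, among them KRT8, EPCAM and PAX8, were above the brightest Bacillus control probe set on all 6 arrays, with summed signals of 71667 to 80556 in MFAP5 and 62528 to 73860 in control cells. Single markers within this sum moved in different directions. The log2 fold change, MFAP5 over control, was 1.86 for MUC16, 0.53 for PAX8, 0.31 for EPCAM, -0.16 for KRT8 and -0.77 for WFDC2. None of the leukocyte markers PTPRC, CD3E and CD14 was above the brightest Bacillus control on every array. PTPRC and CD3E were each above it on 1 MFAP5 and 1 control array, and CD14 on 2 MFAP5 arrays and 1 control array. Of 5 stromal markers COL1A1 and COL1A2 were above it on all 6, LUM on 1, and COL3A1 and DCN on none. The summed stromal signal was 246 to 324 in MFAP5 and 254 to 277 in control cells, and any part of such cells in the results was not tested. Every array was scaled to the same level, so a change in total RNA per cell or in cell number cannot be told apart from no change. Precision is limited by having 3 arrays a group, and whether the samples of a group came from separate cultures is not stated beyond their being independent, so p-values measure the spread between these samples.

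The cytosolic synthetases moved in both directions. Of 17 tested, 4 rose with MFAP5 (AARS1, CARS1, NARS1 and TARS1), 3 fell (FARSB, HARS1 and RARS1) and 10 were not called. Called means an adjusted p below 0.05 in limma, a linear model with moderated variances fitted to all 27307 probe sets past the filter, with Benjamini-Hochberg adjustment over all of them. In either direction 41.2% of the 17 were called, beside 29.9% of all genes. The 4 rises are 23.5% of the 17, beside 14.6% of all 12216 genes called higher. The 3 falls are 17.6%, close to the 15.3% of all genes called lower. All 17 also passed a stricter filter at the 75% quantile of brightness, again with 4 rises and 3 falls. Of the genes past that filter 17.2% were higher and 22.6% lower, with a median log2 fold change of -0.04. Groups did not overlap for 9 of the 17, with MFAP5 above in 6 (35.3%) and below in 3 (17.6%), beside 22.3% above, 23.6% below and 45.9% in all among the 12216 genes. The median log2 fold change of the 17 was -0.04, against -0.01 for all genes, and its sign was not stable: it was 0.014 without MFAP5 replicate 3, 0.025 and 0.031 without control replicate 1 or 2, and -0.12 without control replicate 3.

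AARS1, which charges alanine tRNA, changed most among the rises. Its signal was 5725, 5131 and 5114 on the MFAP5 arrays and 4009, 4104.5 and 3573 on the control arrays. The groups did not overlap, and the mean was 5323 ± 348 with MFAP5 and 3896 ± 283 in control (SD, n = 3 each), a 1.37-fold rise (log2 fold change 0.45 ± 0.08 SE, limma adjusted p = 0.00203). NARS1, the asparagine enzyme, had signals of 6629, 6642 and 7242 with MFAP5 and 5306, 5310 and 6164 in control (log2 fold change 0.29 ± 0.08 SE, limma adjusted p = 0.0184). Control replicate 3 was the highest control and still lay below each MFAP5 array.

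CARS1, which charges cysteine tRNA, had signals of 10955, 10150 and 9702 with MFAP5 and 8983, 9278 and 7932 in control (log2 fold change 0.24 ± 0.08 SE, limma adjusted p = 0.0455). Its groups did not overlap but came close, and 2 further probe sets that were tested gave log2 fold changes of 0.10 and -0.02, neither called. TARS1, the threonine enzyme, was the tightest of the rises, with 7766, 7947 and 7782 on the MFAP5 arrays and 6774, 6687 and 6572 on the control arrays (log2 fold change 0.23 ± 0.06 SE, limma adjusted p = 0.0128). Only AARS1 kept its call in all 15 alternative settings. The CARS1 call was lost without MFAP5 replicate 1 (limma adjusted p = 0.136), 2 (0.115) or 3 (0.0543) or control replicate 1 (0.0791) or 3 (0.0769), that of NARS1 without MFAP5 replicate 3 (0.0718) or control replicate 1 (0.0728) or 2 (0.0721), and that of TARS1 without MFAP5 replicate 2 (0.0686). With the arrays centred on their medians or on the hybridisation controls, AARS1 was the only cytosolic gene of the 4 still called.

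Among the 3 that fell, FARSB changed most. It encodes the beta subunit of cytosolic phenylalanyl-tRNA synthetase, an enzyme built of alpha (FARSA) and beta chains. FARSB signals were 4488, 3893 and 3961 with MFAP5 and 6799, 6028 and 5505 in control, with no overlap (log2 fold change -0.57 ± 0.09 SE, 1.48-fold lower, limma adjusted p = 0.00128). Its partner FARSA had signals of 993, 1065 and 786 with MFAP5 and 1118, 1118 and 946 in control, groups that overlapped (log2 fold change -0.17 ± 0.12 SE, adjusted p = 0.347). The other FARSA probe set past the filter gave -0.40, with MFAP5 below control without overlap but no call (limma adjusted p = 0.103). The other FARSB probe set past the filter, much dimmer, gave -0.27 with overlap (adjusted p = 0.544).

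HARS1, the histidine enzyme, had signals of 3989, 3764 and 3638 in MFAP5 cells and 5278, 5285 and 5202 in control cells. The control arrays lay close together, above all 3 MFAP5 arrays (log2 fold change -0.47 ± 0.06 SE, 1.39-fold lower, limma adjusted p = 0.000469). RARS1, the arginine enzyme and a member of the multi-synthetase complex, had signals of 14324, 12657 and 12702 with MFAP5 and 16291, 16243 and 14869 in control (log2 fold change -0.26 ± 0.07 SE, limma adjusted p = 0.0227). Its groups did not overlap, but leaving out MFAP5 replicate 2 ended the call (adjusted p = 0.106), as did leaving out MFAP5 replicate 3 (0.0854) or control replicate 1 (0.0823) or 2 (0.0782). Centring on hybridisation controls (limma adjusted p = 0.0634) or leaving out the intensity trend in limma (0.102) also ended the RARS1 call. The calls of FARSB and HARS1 were kept in each of the 15 alternative settings.

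The 10 cytosolic genes that were not called had log2 fold changes between -0.17 and 0.19. GARS1, the glycine enzyme of both compartments, came nearest, with 15580, 14739 and 14481 on MFAP5 arrays and 13690, 13687 and 11946 on control arrays (log2 fold change 0.19 ± 0.07 SE, limma adjusted p = 0.073). SARS1, the serine enzyme, also showed no overlap, at 7991, 7614 and 7822 with MFAP5 against 7349, 7408 and 6553 in control (adjusted p = 0.157). YARS1, the tyrosine enzyme, averaged 4258 ± 88 with MFAP5 and 4263 ± 277 in control (SD, n = 3 each), a log2 fold change of 0.00 with a 95% interval from -0.15 to 0.15.

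Members of the multi-synthetase complex other than RARS1 were among those not called. The log2 fold change was -0.11 ± 0.06 SE for KARS1 (limma adjusted p = 0.207), -0.13 ± 0.09 for LARS1, the leucine enzyme (0.321), -0.04 ± 0.14 for EPRS1, the joined glutamate and proline enzyme (0.866), and 0.03 ± 0.12 for IARS1, the isoleucine enzyme (0.902). Of the 5 measured complex members 1 fell and none rose, and of the 12 genes outside it 4 rose and 2 fell, beside 14.6% of all genes higher and 15.3% lower. These counts depend on the probe set used, because other probe sets of LARS1 were called higher and another of KARS1 lower. The subsets were not tested against each other. Control replicate 3 stood apart in several of these genes. IARS1 was 10346 on control replicate 3 against 14525 and 14028 on the other control arrays, and EPRS1 was 8348 against 11853 and 12251. VARS1 (valine) went the other way there, at 2328 on control replicate 3 against 1448 and 1431. The 95% interval of the log2 fold change ran from -0.24 to 0.30 for IARS1, from -0.36 to 0.28 for EPRS1 and from -0.45 to 0.30 for VARS1. Without control replicate 3, the value was -0.13 for IARS1 and 0.16 for VARS1, neither called.

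Probe sets of the same gene could differ in their calls. For CARS1, FARSB and TARS1 the brightest was called and the others past the filter were not. Averaging the probe sets ended the call for CARS1 (limma adjusted p = 0.51) and TARS1 (0.128) and kept it for FARSB (0.0317). Among genes not called, LARS1, KARS1 and WARS1 (tryptophan) had other probe sets that were called. For LARS1, 2 of 3 other probe sets past the filter were called higher, with log2 fold changes of 0.36 (limma adjusted p = 0.0264) and 0.51 (adjusted p = 0.0198), opposite in sign to the brightest. The other KARS1 probe set past the filter was called lower (log2 fold change -0.35, limma adjusted p = 0.00211), as was that of WARS1 (-0.36, adjusted p = 0.0149), whose brightest probe set gave -0.09. Which probe set reflects these transcripts was not tested.

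**Figure D1:**
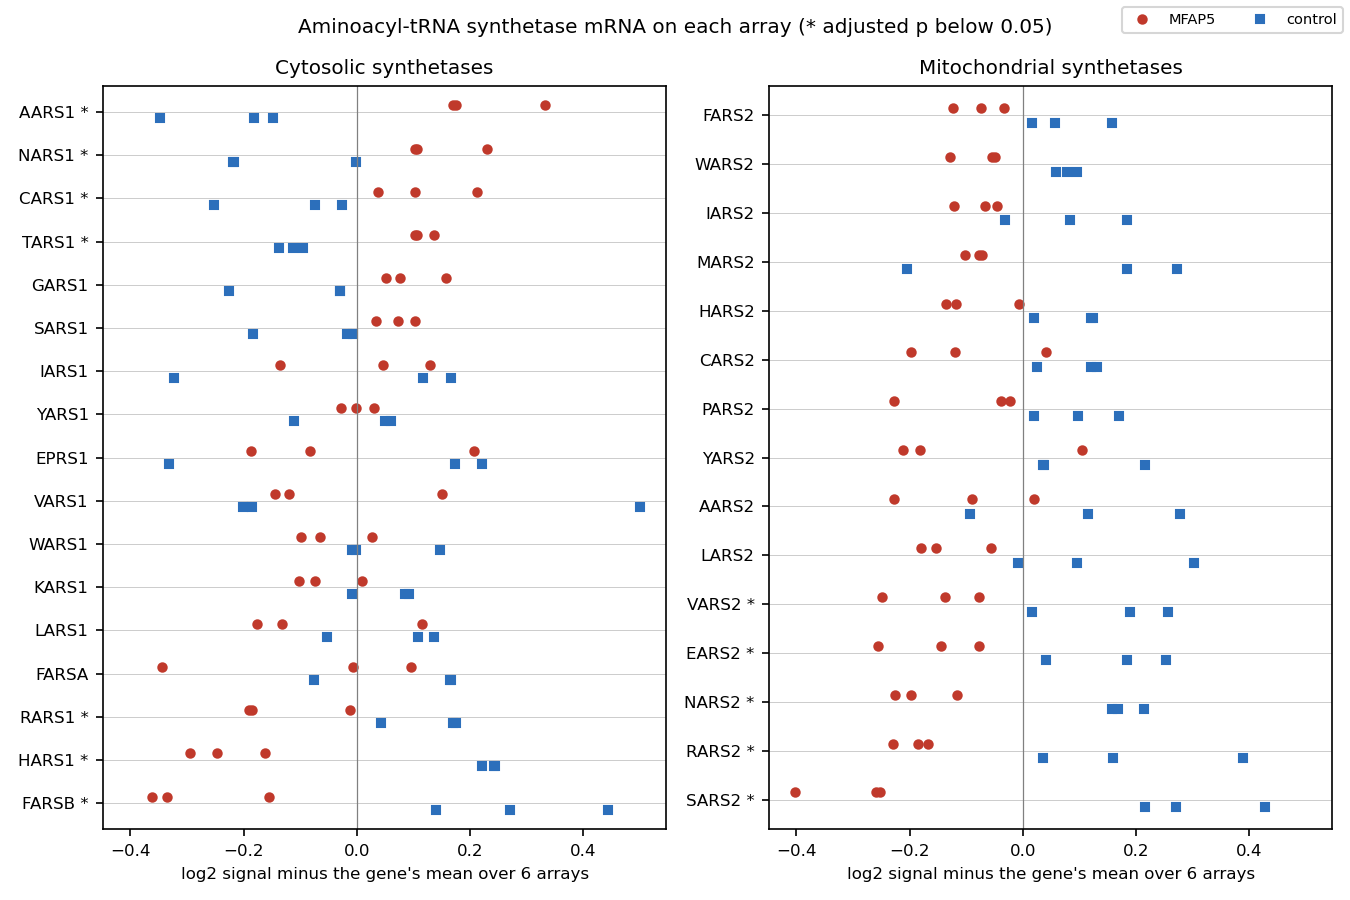
Log2 signal of each synthetase on each array, minus the gene's mean over the 6 arrays (MFAP5 red circles, control blue squares, 3 arrays each), with genes ordered by log2 fold change within each compartment and * marking an adjusted p below 0.05. The cytosolic panel runs from AARS1, with all MFAP5 arrays right of the controls, to FARSB, with all of them left, and in the mitochondrial panel 11 of 15 genes have every MFAP5 array left of every control array.

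The mitochondrial synthetases lay lower with MFAP5 as a set. All 15 had a negative log2 fold change, against 51.1% of all genes tested, and the median was -0.19. In the limma test 5 fell (SARS2, RARS2, NARS2, EARS2 and VARS2), none rose and 10 were not called. The 5 falls are 33.3% of the 15, beside 15.3% of all genes called lower. All 15 also passed a stricter filter at the 75% quantile of brightness. There 5 fell again, beside a higher share of 22.6% of the genes past that filter. The groups did not overlap for 11 of the 15 (73.3%), with MFAP5 below control each time, beside 23.6% of all genes. The changes were small: the falls ran from 1.24-fold to 1.53-fold.

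SARS2, which charges serine tRNA in mitochondria, changed most. Its signals were 432, 477 and 479 on the MFAP5 arrays and 663, 768 and 689 on the control arrays, averaging 463 ± 27 and 707 ± 55 (SD, n = 3 each). With no overlap, SARS2 was 1.53-fold lower (log2 fold change -0.61 ± 0.10 SE, limma adjusted p = 0.00208). RARS2, for arginine, had signals of 1711, 1690 and 1639 with MFAP5 and 2515, 1969 and 2146 in control (log2 fold change -0.39 ± 0.09 SE, limma adjusted p = 0.0118). Of the 2 other RARS2 probe sets past the filter, 1 was also called lower, with a log2 fold change of -0.40 (limma adjusted p = 0.024).

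NARS2, for asparagine, was measured with little spread, at 3748, 3543 and 3474 with MFAP5 and 4563, 4528 and 4713 in control (log2 fold change -0.36 ± 0.06 SE, limma adjusted p = 0.00221). EARS2 charges glutamate, and in mitochondria it also loads glutamate onto the glutamine tRNA, where an amidotransferase then converts it. EARS2 signals were 1142, 1057 and 1197 with MFAP5 and 1299, 1505 and 1434 in control (log2 fold change -0.32 ± 0.09 SE, limma adjusted p = 0.023). VARS2, for valine, had signals of 1559, 1495 and 1383 with MFAP5 and 1964, 1874 and 1663 in control (log2 fold change -0.31 ± 0.09 SE, limma adjusted p = 0.025). In all 5 genes each MFAP5 array was below each control array.

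SARS2 and NARS2 kept their calls in each of the 15 alternative settings. The RARS2 call was lost without the intensity trend in limma (adjusted p = 0.0553), as were those of EARS2 (0.0665) and VARS2 (0.0794). Centring on hybridisation controls also ended the calls of EARS2 (limma adjusted p = 0.121) and VARS2 (0.11). The EARS2 call was lost without MFAP5 replicate 2 (limma adjusted p = 0.0995) or control replicate 2 (0.0911) or 3 (0.0509), and that of VARS2 without MFAP5 replicate 2 (0.0707) or 3 (0.0862) or control replicate 1 (0.0958) or 2 (0.0819). Without MFAP5 replicate 2, 3 mitochondrial genes were called lower, beside 10.1% of all genes. The negative sign of all 15 held in each of the 15 settings, including centring the arrays on their medians, which lowered the median of all genes to -0.15 and that of the mitochondrial set to -0.33, with 13 of 15 then called lower beside 28.2% of all genes.

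The 10 mitochondrial genes not called had log2 fold changes packed between -0.26 and -0.15, with limma adjusted p from 0.0757 to 0.336. LARS2 (leucine) came nearest, at 943, 926 and 1009 with MFAP5 against 1121, 1042 and 1294 in control. HARS2 (histidine) had 2791, 2552 and 2585 with MFAP5 against 3048, 3055 and 2842 in control (limma adjusted p = 0.0899), and IARS2 (isoleucine) 9348, 9707 and 9854 against 11549, 10776 and 9956 (adjusted p = 0.119). These 3 genes had groups that did not overlap, as did FARS2 (phenylalanine), PARS2 (proline) and WARS2 (tryptophan). The groups of AARS2, CARS2, MARS2 and YARS2 overlapped. Control replicate 2 of MARS2, at 908, lay below all 3 MFAP5 arrays (995, 974 and 992), and without it MARS2 was called lower (log2 fold change -0.31, limma adjusted p = 0.0451). IARS2 was called lower without control replicate 3 (-0.21, adjusted p = 0.0202). Further probe sets of AARS2 (log2 fold change -0.50, limma adjusted p = 0.0352) and WARS2 (-0.31, adjusted p = 0.0418) were called lower, and no further probe set of a mitochondrial member past the filter was called higher.

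The list allowed a comparison of the cytosolic and the mitochondrial enzyme for the same amino acid in 11 pairs. In 10 of the 11 the cytosolic gene had the more positive log2 fold change, histidine being the exception, and the median difference was 0.19. The difference was largest for serine, at 0.75 ± 0.10 (SE), from 0.14 for SARS1 and -0.61 for SARS2. For asparagine it was 0.65 ± 0.09, and this was the only pair called in opposite directions, NARS1 higher and NARS2 lower. For alanine it was 0.65 ± 0.13, with AARS1 called higher and AARS2 (1161, 978 and 1077 with MFAP5, against 1074, 1389 and 1240 in control) not called. The cysteine pair differed by 0.42 ± 0.14, with CARS2 at 653, 770 and 688 in MFAP5 cells and 762, 814 and 819 in control cells. Arginine was the only pair in which both enzymes were called lower.

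The pair differences separated the 6 arrays without overlap in 5 of the 11 pairs, those of alanine, cysteine, histidine, asparagine and serine. Taken singly, 45.9% of all 12216 genes had groups that did not overlap in either direction. The share among differences between other gene pairs was not counted. Each of these 5 had p = 0.1 in a two-sided exact permutation test over the 6 arrays, the smallest that 3 against 3 arrays allow, and 0.22 after Benjamini-Hochberg adjustment over the 11 pairs, so no pair could pass the threshold in this test. The other 6 pairs had p from 0.2 to 0.6 in the same exact test.

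**Figure D2:**
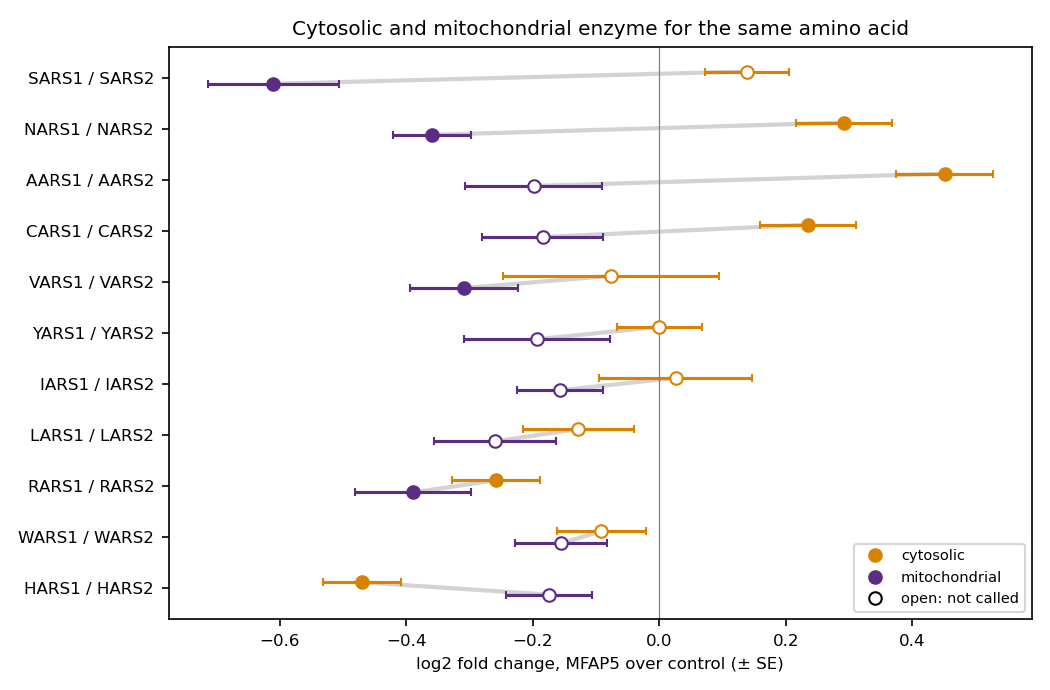
Log2 fold change (MFAP5 over control, ± SE) of the cytosolic (orange) and mitochondrial (purple) enzyme for the same amino acid, 11 pairs ordered by their difference, with filled points called at an adjusted p below 0.05. Purple points all lie left of 0, orange points spread from -0.47 (HARS1) to 0.45 (AARS1), and only in the histidine pair is the orange point left of the purple one.

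Histidine was also distinct in its genome arrangement. HARS1 and HARS2 lie head to head on chromosome 5, transcribed away from each other, and the 84 bases between their annotated starts (chr5:140691371-140691454, GRCh38.p14, plus strand) are shown because HARS1, unlike the other cytosolic enzymes of a pair, had the lower fold change.
HARS1 to HARS2: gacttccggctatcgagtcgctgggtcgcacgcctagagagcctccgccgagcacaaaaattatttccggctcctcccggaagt
With this stretch in common, HARS1 fell by 0.47 on the log2 scale and HARS2 had a change of -0.17 that was not called. The difference between them was -0.30 ± 0.03 (SE).

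The compartments could also be set against each other array by array, and the groups did not overlap. The median deviation of the cytosolic members from their own means, minus that of the mitochondrial members, was 0.16, 0.18 and 0.06 (log2) on the MFAP5 arrays and -0.06, -0.06 and -0.19 on the control arrays. Most of this lay in the mitochondrial set, whose median deviation was -0.12, -0.18 and -0.09 with MFAP5 and 0.16, 0.12 and 0.11 in control. The cytosolic median deviation overlapped, at 0.05, -0.00 and -0.03 with MFAP5 and 0.09, 0.06 and -0.08 in control. These values describe the chosen list and carry no test. Enzyme class did not divide the mitochondrial set: 3 of 9 class I and 2 of 6 class II genes fell, with medians of -0.19 for both. Among cytosolic genes, 3 of 9 class II enzymes rose and 2 fell, and 1 of 7 class I enzymes rose and 1 fell, close in class I to the 14.6% higher and 15.3% lower of all genes.

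Genes that act before and after the synthetases were counted by list, and each count stands against 14.6% of all genes called higher, 15.3% called lower and 51.1% with a negative log2 fold change. Of 9 amino acid transporters tested, 6 rose and none fell, beside 14.6% of all genes higher, with a median log2 fold change of 0.46. SLC7A11, the cystine transporter, had the largest rise (log2 fold change 1.52), followed by the neutral amino acid carriers SLC38A1 (0.53 ± 0.06 SE, limma adjusted p = 0.000151) and SLC1A4 (0.47 ± 0.08, adjusted p = 0.00199) and the cationic amino acid carrier SLC7A1 (0.46 ± 0.08, adjusted p = 0.00311). Of 15 genes of amino acid sensing and the integrated stress response, 9 rose and 2 fell, with the largest rises in CHAC1, ATF3, DDIT3 and VLDLR (log2 fold changes 1.53, 1.28, 0.995 and 0.88). The 2 that fell were EIF2S1, a subunit of the initiation factor that stress kinases phosphorylate (-0.42), and the mTOR inhibitor DDIT4 (-0.49), both named after their values were seen. ATF4 itself, also named for its role, had signals of 17463, 17106 and 15204 with MFAP5 and 13837, 13900 and 11897 in control (log2 fold change 0.33 ± 0.08 SE, limma adjusted p = 0.0138). These 2 lists overlap with genes already known to be higher in these samples, so their counts are not independent of that knowledge.

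Of 12 enzymes of amino acid and one-carbon synthesis, 2 rose, 1 fell and 9 were not called, shares near the 14.6% higher and 15.3% lower of all genes. ASNS, which makes asparagine and so supplies the substrate of NARS1, had signals of 5195, 4997 and 4987 with MFAP5 and 3592, 3517 and 3323 in control (log2 fold change 0.54 ± 0.06 SE, limma adjusted p = 0.000198). CBS, an enzyme on the route to cysteine, rose (log2 fold change 0.28 ± 0.06 SE, adjusted p = 0.0109), and ALDH18A1, an enzyme of proline synthesis, fell (-0.28 ± 0.08, adjusted p = 0.0305). Leaving out MFAP5 replicate 2 ended the CBS call (adjusted p = 0.0644), and that of ALDH18A1 was lost without MFAP5 replicate 1 (0.0865) or 2 (0.0903) or control replicate 1 (0.096) or 3 (0.0745). Of the scaffolds of the multi-synthetase complex, AIMP1 was the only 1 with a probe set of its own, and it fell (log2 fold change -0.27 ± 0.06 SE, limma adjusted p = 0.00989). Averaged over all its probe sets past the filter, AIMP1 had a log2 fold change of 0.06 (adjusted p = 0.649).

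Of 12 mitochondrial translation factors tested, 7 fell, none rose and 5 were not called, beside 15.3% of all genes lower, with a median log2 fold change of -0.29. Of the 12, 3 had positive values that were not called, GFM1 (0.21, MFAP5 above control without overlap), MTRF1 (0.44) and MTRF1L (0.055), named after their values were seen. The largest falls were those of the initiation factor MTIF2 (-0.54 ± 0.06 SE, limma adjusted p = 0.000108), the ribosome recycling factor MRRF (-0.43 ± 0.07, adjusted p = 0.00223), QRSL1 (-0.41 ± 0.07, adjusted p = 0.00209) and the elongation factor TSFM (-0.39 ± 0.07, adjusted p = 0.00412). QRSL1 is a subunit of the amidotransferase that completes the glutamine tRNA loaded by EARS2. Its partner subunits GATB (-0.37, adjusted p = 0.0104) and GATC (-0.21, adjusted p = 0.0448) were called lower too, as was MTFMT (-0.38, adjusted p = 0.00566), which formylates the methionine tRNA charged by MARS2. These 3 genes were named for their roles after their values were seen. The GATC call was lost when any 1 array was left out (adjusted p = 0.0584 to 0.139), and averaging all probe sets ended it for QRSL1 (adjusted p = 0.293) and turned the sign for GATC (0.12, adjusted p = 0.145).

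tRNA processing genes had mostly negative log2 fold changes. Of 17 tested, 8 fell and 1 rose, and 16 had a negative log2 fold change (median -0.28), beside 15.3% of all genes lower, 14.6% higher and 51.1% negative. RPP40, a protein of RNase P, which trims the leading end of tRNA precursors, had signals of 1222, 1362 and 1376 with MFAP5 and 2283, 2682 and 2537 in control (log2 fold change -0.92 ± 0.08 SE, limma adjusted p = 5.02e-05). TSEN15 of the tRNA splicing endonuclease (-0.51 ± 0.15 SE, adjusted p = 0.0323), POP1, also of RNase P (-0.45 ± 0.14, adjusted p = 0.0439), and ELAC2, which trims the trailing end (-0.41 ± 0.08, adjusted p = 0.00362), fell as well. The single rise was XPOT, the nuclear export receptor of tRNA (0.29 ± 0.08, adjusted p = 0.0287), named after its value was seen. Calls were lost for TSEN15 without MFAP5 replicate 1 or 2 or any 1 control array (adjusted p = 0.0516 to 0.0825), for POP1 without any 1 array other than control replicate 3 (0.0574 to 0.156), and for XPOT without MFAP5 replicate 2 or 3 or control replicate 2 or 3 (0.0565 to 0.11).

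Of 3 genes of tRNA editing and selenocysteine synthesis, SEPSECS, which finishes selenocysteine on its tRNA (-0.72 ± 0.15 SE, limma adjusted p = 0.00754), and DTD1, a deacylase that removes D-amino acids from tRNA (-0.66 ± 0.07, adjusted p = 8.4e-05), fell. Averaged over its probe sets, DTD1 was not called (adjusted p = 0.379). Of 7 cytosolic elongation and termination factors, 2 were called lower, EIF5A (-0.26 ± 0.07 SE, limma adjusted p = 0.0252) and the release factor GSPT1 (-0.25 ± 0.06, adjusted p = 0.0119). The other 5 had positive values that were not called, all with MFAP5 above control without overlap, beside 22.3% of all genes. The list median was a log2 fold change of 0.14. EIF5A was not called with MFAP5 replicate 2 (adjusted p = 0.0882) or 3 (0.0976) or control replicate 1 (0.0956) or 2 (0.0899) left out, nor GSPT1 with MFAP5 replicate 2 left out (0.0647), and averaging its probe sets turned GSPT1 to 0.20 (adjusted p = 0.172).

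**Figure D3:**
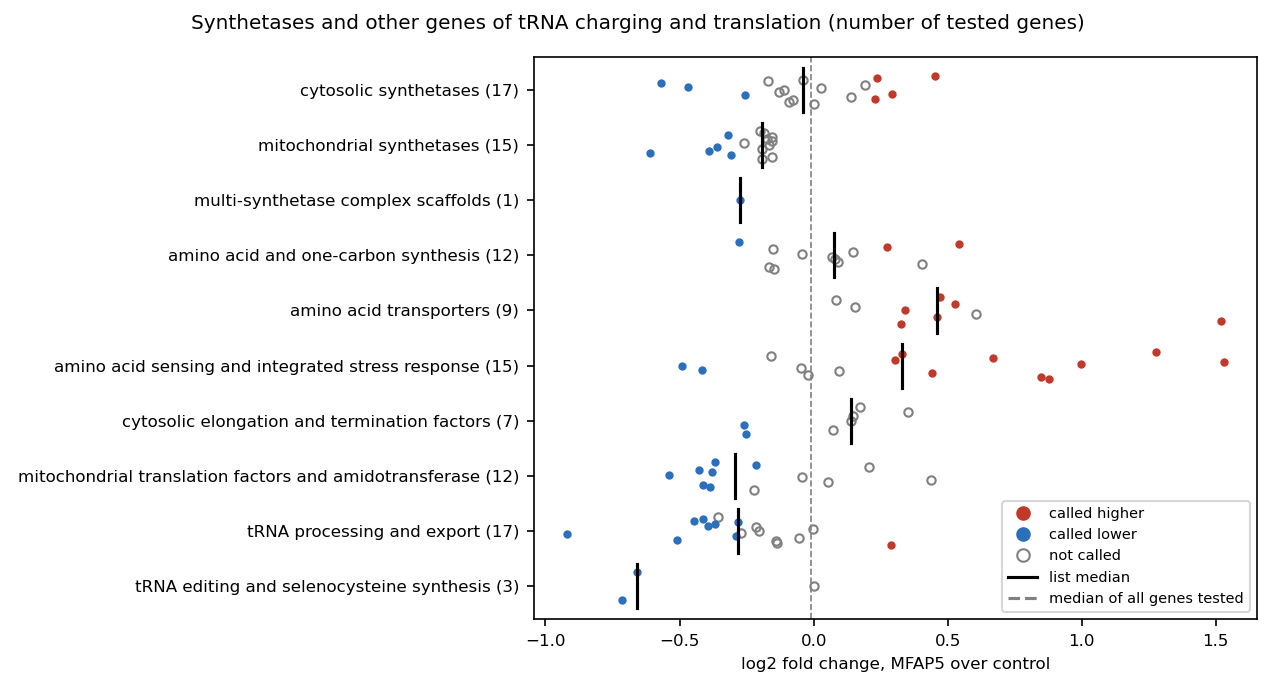
Log2 fold change (MFAP5 over control) of each tested gene in the synthetase sets and 8 lists of related genes, with the number tested in brackets, red called higher, blue called lower, open not called, a black bar at the list median and a dashed line at the median of all 12216 genes. The amino acid transporters have their median at 0.46 and the mitochondrial synthetases, mitochondrial translation factors and tRNA processing genes at -0.19, -0.29 and -0.28.

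The promoter search returns to the sequences printed at the start. RefSeq windows of 250 bases before and 50 after the annotated start were at hand for 30 of the 35 members, 16 cytosolic and 14 mitochondrial, some with 2 annotated starts, 39 windows in all. TTGCATCA, on either strand, was in 6 of the 16 cytosolic and in 0 of the 14 mitochondrial genes. Counted by gene in the same way it was in 1.08% of all 27305 gene symbols, and by window in 0.866% of all 35116. All 4 cytosolic genes called higher held it, beginning at -187 for AARS1, -2 for CARS1, 15 for NARS1 and 3 for TARS1 (counted from 1 at the first transcribed base, with negative positions upstream and no position 0). None of the 7 called-lower members with a window held it. IARS1 held it at -13 and was not called, and MARS1 held it at -4 and had no probe set of its own.

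A looser form of the element, TGATGNAA on either strand, contains every TTGCATCA match and was in 4.46% of all gene symbols and 3.62% of all windows. It added GARS1 (TTTCATCA at -33), whose signals on MFAP5 arrays lay above those on control arrays without a call, and YARS2 (TGATGGAA at -197), which had a log2 fold change of -0.19 that was not called. In CARS1, TARS1 and GARS1 the match was near only 1 of the 2 annotated starts. A match shows these letters in the window and nothing of what binds there, and a window without them says only that they are not in those 300 bases.

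**Figure D4:**
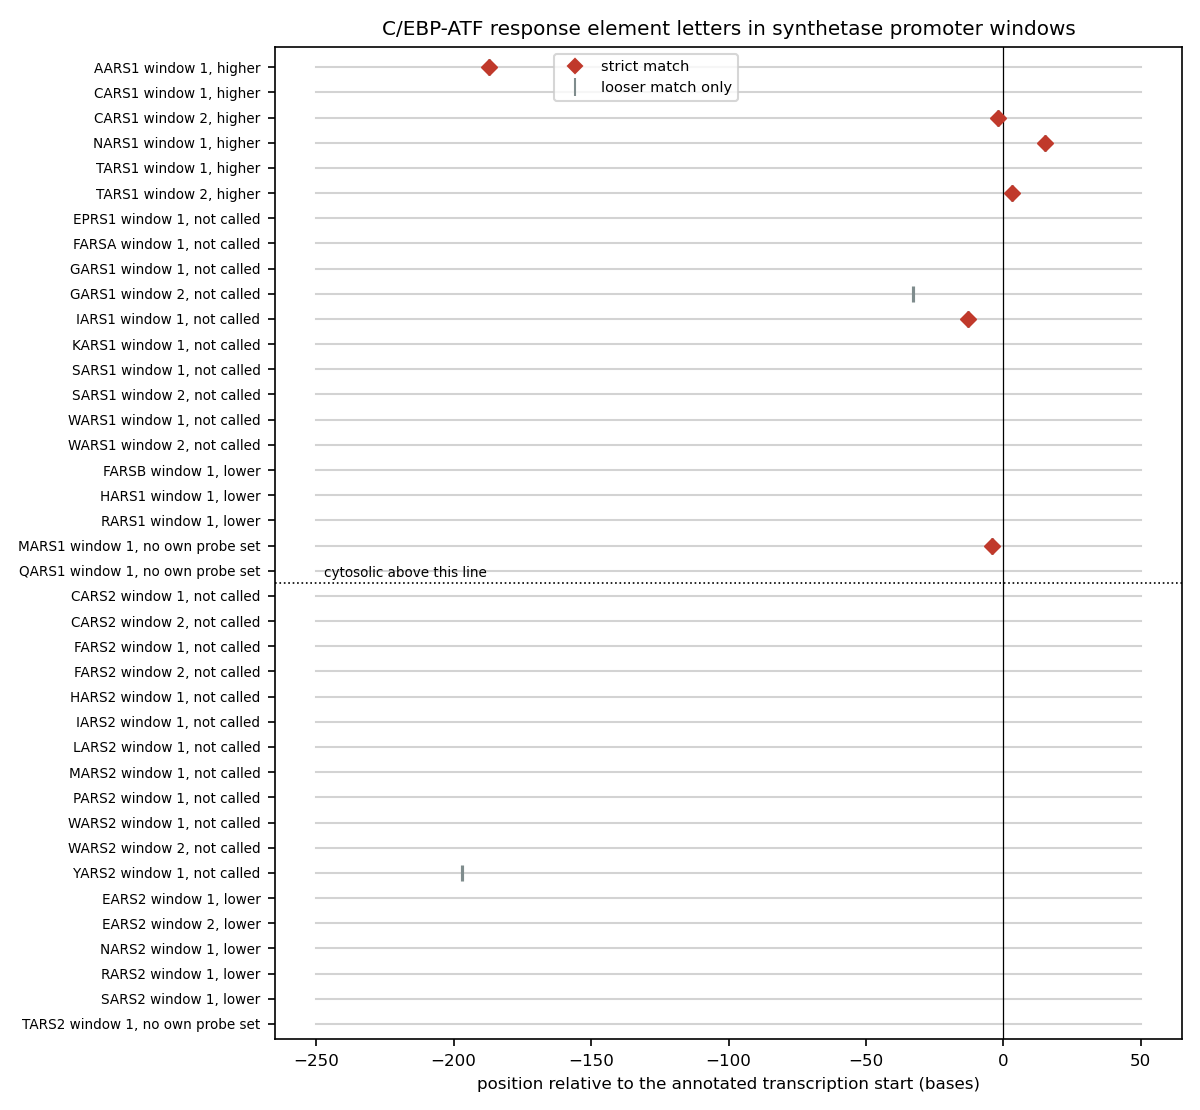
Position of the element's letters in 39 promoter windows of 30 synthetases, from 250 bases before to 50 after the annotated start (vertical line), with red diamonds for TTGCATCA and grey bars for TGATGNAA alone, cytosolic genes above the dotted line and the call for MFAP5 against control beside each name. The diamonds fall in AARS1, CARS1, NARS1, TARS1, IARS1 and MARS1 and in none of the mitochondrial windows.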

How the data were processed

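Gene expression was measured in 3 MFAP5 and 3 control samples, grouped by their titles. The values the authors deposited are intensities on a linear scale, which the submitters' processing notes tie to MAS5. Its version is not given in the sources used here. The trimmed means, with 2% left out at each end, were equal on all arrays, so no further scaling was applied. Median signals were higher on the MFAP5 arrays, and centring on them was among the alternatives. On a log scale, weak MAS5 values scatter more than bright ones.

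Signals were taken to log2. The 62 control probe sets and those with a mean log2 signal below the median (a signal of 53.7) were removed, which left 27307 of 54675. limma 3.58.1 in R 4.3.3 (lmFit, eBayes with an intensity trend) compared the groups, two-sided, with Benjamini-Hochberg adjustment. The fit was tested on simulated data. Genes were named by the platform annotation, and all 32 synthetase symbols were found in RefSeq through their Entrez identifiers. Promoter sequences are RefSeq's (GRCh38.p14).

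The members and lists were chosen with earlier results of these data known. All listed synthetases were described, and from each related list up to 4 called genes with the largest change, with exceptions stated. Alternatives were 3 other normalizations, an offset of 50, no filter or a 75% filter, no trend, the mean of all probe sets of a gene, each array left out, the replicate number as a block, and GARS1 and KARS1 left out. Same-numbered arrays had deviations from their group means that correlated at 0.089, -0.007 and 0.166, and differently numbered ones at -0.18 to 0.103. These values do not settle whether the numbers pair samples, and the reported fit does not pair them.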

Additional observations from a re-analysis of the deposited data

How the results depend on the processing

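Of the 12 synthetases called, 5 of them (AARS1, FARSB, HARS1, NARS2 and SARS2) kept their calls in all 15 alternatives, and all 15 mitochondrial genes stayed below 0 in each. The cytosolic rises, 4 in the analysis as reported, numbered 1 with arrays centred on their medians, 1 with centring on hybridisation controls, 1 with no intensity trend, and 2 to 3 when 1 array was left out (2 without MFAP5 replicate 2, MFAP5 replicate 3 or control replicate 1). Of all genes, 14.6% were called higher as reported, and 9.15%, 7.49%, 11.4% and 10.6% to 14.4% in those settings, in the same order. The cytosolic falls, 3 as reported, numbered 6 with centring on array medians and 5 with the mean of all probe sets of a gene. They numbered 2 with centring on hybridisation controls, 2 with no intensity trend, and 2 to 3 when 1 array was left out. The count was 2 without MFAP5 replicate 2 or 3 or control replicate 1 or 2. All genes called lower made up 15.3% as reported, and 28.2%, 14.5%, 8.94%, 9.91% and 10.1% to 15.1% in those settings, in the same order. The mitochondrial falls, 5 as reported, numbered 13 with centring on array medians, 3 with centring on hybridisation controls, 2 with no intensity trend, and 3 to 5 when 1 array was left out (3 without MFAP5 replicate 2). The share of all genes called lower was 28.2%, 8.94%, 9.91% and 10.1% to 15.1% in those settings, in the same order. The median log2 fold change was -0.18 (cytosolic) and -0.33 (mitochondrial) with centring on array medians, a setting that moved the median of all genes to -0.15, and -0.25 (mitochondrial) with centring on hybridisation controls. Leaving out 1 array put the cytosolic median between -0.12 and 0.031, and averaging probe sets put it at 0.026. Median signals were higher on the MFAP5 arrays (60.2 to 61.4) than on the control arrays (53.6 to 56.3). Centring on medians therefore lowers every log2 fold change by the same amount. What lies behind the different medians, and the causes of the other moves, were not tested.

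Signs turned for LARS1 with the mean of its probe sets (0.21, limma adjusted p = 0.0299). Among synthetases not called, signs turned without a call for IARS1 with centring on array medians (-0.11) or hybridisation controls (-0.030) and for YARS1 in the same centrings (-0.14 and -0.056). Leaving out 1 array also turned signs without a call, for IARS1 without MFAP5 replicate 2 or control replicate 3 (range over the 6 arrays -0.13 to 0.12), for YARS1 without MFAP5 replicate 1 or control replicate 3 (-0.055 to 0.031), for EPRS1 without MFAP5 replicate 3 or control replicate 1 or 2 (-0.22 to 0.059) and for VARS1 without control replicate 3 (-0.20 to 0.16). With the replicate number as a block, 7988 probe sets were called against 6888, 5 cytosolic synthetases rose, 3 fell and 6 mitochondrial ones fell. Of all genes, 16.9% were then higher and 18% lower. The array deviations did not settle whether the numbers pair samples. MFAP5 replicate 1 correlated best with control replicate 2 (0.103, against 0.089 with control replicate 1), but the highest correlation was between the arrays numbered 3 (0.166).

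The same settings were applied to the related lists after seeing the data. Their 18 higher calls became 11 with centring on array medians and 10 on hybridisation controls, and their 23 lower calls became 13 with centring on hybridisation controls and 15 with no intensity trend. The share of all genes called higher went from 14.6% to 9.15% and 7.49% in the same centrings. The share called lower went from 15.3% to 8.94% with hybridisation controls and 9.91% with no trend. Averaging probe sets turned the sign of AIMP1 (0.057), GSPT1 (0.20) and GATC (0.12).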

Other observations

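The letters TTGCATCA were in the promoter window of 77 genes tested, 5 of them synthetases, and these were counted after the synthetase windows had been read. Of the 77, 21 were called higher with MFAP5 and 5 lower, with a median log2 fold change of 0.17. Leaving out the synthetases, 17 of 72 (23.6%) were higher and 5 (6.94%) lower, with a median of 0.14. Among all 9985 tested genes with a window, 14.2% were higher and 15.8% lower, with a median of -0.02. Among the related lists, the letters stood in CHAC1, CEBPG, SLC1A4, SLC1A5 and GOT1, of which CHAC1, CEBPG and SLC1A4 were called higher and SLC1A5 and GOT1 were not called. For the looser TGATGNAA, 62 of 252 genes other than synthetases (24.6%) were higher and 32 (12.7%) lower. These are counts over genes of the same 6 arrays and carry no test.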
